A study of Homo sapiens with 18 samples.

Results

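Rubicon, the product of RUBCN, and the genes of the class III PI3-kinase complex were followed across 6 groups of RPE-1 libraries. The 7 genes were chosen by name from the 33121 genes of the count table: RUBCN, listed there under its older symbol KIAA0226, UVRAG, BECN1, ATG14, PIK3C3, PIK3R4 and NRBF2. All 7 passed the filter on low counts, as did 13676 genes in all. RPE-1 is a human retinal pigment epithelial line immortalized with hTERT, the catalytic subunit of telomerase. The groups, of 3 libraries each, were cells with siMlx, which targets MLX, with siMondoA, which targets MLXIP (the MondoA gene), or with siControl, and each was either left untreated or exposed to doxorubicin (DXR). Transfection lasted 2 days in all groups, and DXR, a DNA-damaging topoisomerase poison, followed at 150 ng/ml over 3 days. The library names carry a D0 tag in untreated and a D5 tag in DXR libraries whose meaning the labels do not give, so DXR and any difference in harvest day cannot be told apart. Nothing in the labels says that the 3 libraries of a group came from separate cultures, and p-values then measure only the spread between these libraries, which may be technical.

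PIK3C3 encodes VPS34, the lipid kinase that makes phosphatidylinositol 3-phosphate (PI3P) on the membranes of forming autophagosomes and of endosomes. It works with the pseudokinase scaffold VPS15 (PIK3R4) and with Beclin 1 (BECN1), and a further subunit sets where it acts: ATG14, helped by NRBF2, directs it to the forming autophagosome, and UVRAG to endosomes and later steps. Rubicon binds the UVRAG-containing complex and is known as a negative regulator of autophagosome maturation and endocytic traffic. MondoA and Mlx are transcription factors that bind DNA as a dimer at E-box elements, whose core is CACGTG.

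The genes lie apart in the genome (GRCh38, GENCODE 29). RUBCN is at chr3:197671393-197749727 on the minus strand, UVRAG at chr11:75815167-76143195 on the plus strand, BECN1 at chr17:42810134-42833350 on the minus strand and ATG14 at chr14:55366392-55411858 on the minus strand. PIK3C3 is at chr18:41955206-42087830 on the plus strand, PIK3R4 at chr3:130678935-130746829 on the minus strand and NRBF2 at chr10:63133247-63155031 on the plus strand. RefSeq start-site windows (GRCh38.p14, 250 bases before to 50 after the start) were matched for 6 of the 7 genes. CACGTG, which reads the same on both strands, was in the windows of ATG14, 21 bases before the start, and NRBF2, 246 bases before it. It was in neither of the 2 RUBCN windows nor in those of BECN1, PIK3C3 and PIK3R4, and 7.26% of all 35116 windows hold it. The BECN1 window, at chr17:42823830-42824129, lies inside the gene span given above and not at its 5′ end. CACGTG was kept from 6 strings looked at. Of the others, CACGCG, searched on both strands and so together with its reverse complement, was in windows of RUBCN, ATG14 and NRBF2 (11.4% of all windows). CATGTG was in those of BECN1 and PIK3C3 (11.1%). Of the strings that contain the first one, TCACGTGA was in the NRBF2 window (0.98%) and CCACGTG in the ATG14 window (4.2%). These windows are shown because RUBCN and ATG14 had the lowest fold changes with siMlx and NRBF2 the highest, with CACGTG in capitals.
RUBCN chr3:197749771-197750070, minus strand: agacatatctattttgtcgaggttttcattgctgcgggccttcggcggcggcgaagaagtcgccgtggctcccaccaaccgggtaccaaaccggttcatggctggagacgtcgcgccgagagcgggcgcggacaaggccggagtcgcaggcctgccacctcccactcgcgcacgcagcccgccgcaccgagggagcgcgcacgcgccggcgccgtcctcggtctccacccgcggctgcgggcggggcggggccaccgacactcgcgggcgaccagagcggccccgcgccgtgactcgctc
ATG14 chr14:55411781-55412080, minus strand: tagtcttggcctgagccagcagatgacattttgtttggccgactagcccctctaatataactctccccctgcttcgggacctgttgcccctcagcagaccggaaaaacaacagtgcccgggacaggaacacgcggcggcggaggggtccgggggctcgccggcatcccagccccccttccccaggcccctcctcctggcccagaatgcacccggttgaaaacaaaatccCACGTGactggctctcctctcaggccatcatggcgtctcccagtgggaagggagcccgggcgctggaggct
NRBF2 chr10:63133078-63133377, plus strand: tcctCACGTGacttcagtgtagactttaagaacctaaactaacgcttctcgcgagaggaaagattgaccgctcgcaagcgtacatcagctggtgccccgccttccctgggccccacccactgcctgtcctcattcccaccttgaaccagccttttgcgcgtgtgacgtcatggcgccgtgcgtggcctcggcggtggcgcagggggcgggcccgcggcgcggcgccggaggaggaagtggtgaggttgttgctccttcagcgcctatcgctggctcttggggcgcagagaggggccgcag

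Total counts ran from 15503423 to 29219280 per library. The first and second principal components of all tested genes held 51.7% and 18.7% of the variance. Replicates correlated at 0.9946 or more on the log2 scale of CPM, counts scaled to the library total. CPM in this correlation and for markers, also where summed, were without TMM scaling, and gene levels elsewhere were after it. Of 10 retinal pigment epithelium markers, MITF (17.4 to 36.9 CPM) and OTX2 (10.1 to 26.7 CPM) were present, while defining markers RPE65, RLBP1, TYR, PMEL, SERPINF1 and LRAT stayed under 1 CPM in every library, and BEST1 and TYRP1 reached at most 1.36 and 1.69 CPM. Of 5 epithelial markers KRT8 (229 to 762 CPM) and KRT18 (111 to 566 CPM) were present, while KRT19, CDH1 and EPCAM stayed under 1 CPM. Of 10 fibroblast and mesenchyme markers VIM (2525 to 5032 CPM) was highest, COL1A1, THY1, PDGFRA, PDGFRB and FAP were above 1 CPM in every library, DCN and COL1A2 reached at most 12.7 and 1.02 CPM, and COL3A1 and LUM stayed under 1 CPM. Of 8 blood and endothelium markers CD68 (66.6 to 135 CPM) was present, HBB was at 0 counts, and the other 6 reached at most 2.24 CPM. In bulk RNA, fewer cells of a type and less RNA per cell cannot be told apart.

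The targeted genes fell in their own groups. MLX had 25.7 to 27.4 CPM with siControl and 6.79 to 7.12 with siMlx in untreated cells, a log2 fold change of -1.91 ± 0.07 (SE), and 4.93 to 5.94 CPM with siMlx in DXR-treated cells. MLXIP had 63.7 to 72.9 CPM with siControl and 3.34 to 4.57 with siMondoA in untreated cells, a log2 fold change of -4.13 ± 0.12. MLX was higher with siMondoA than with siControl, by 0.91 ± 0.06 untreated and 0.72 ± 0.06 with DXR (edgeR's quasi-likelihood test, adjusted p = 5.26e-10 and 5.72e-08).

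**Figure D1:**
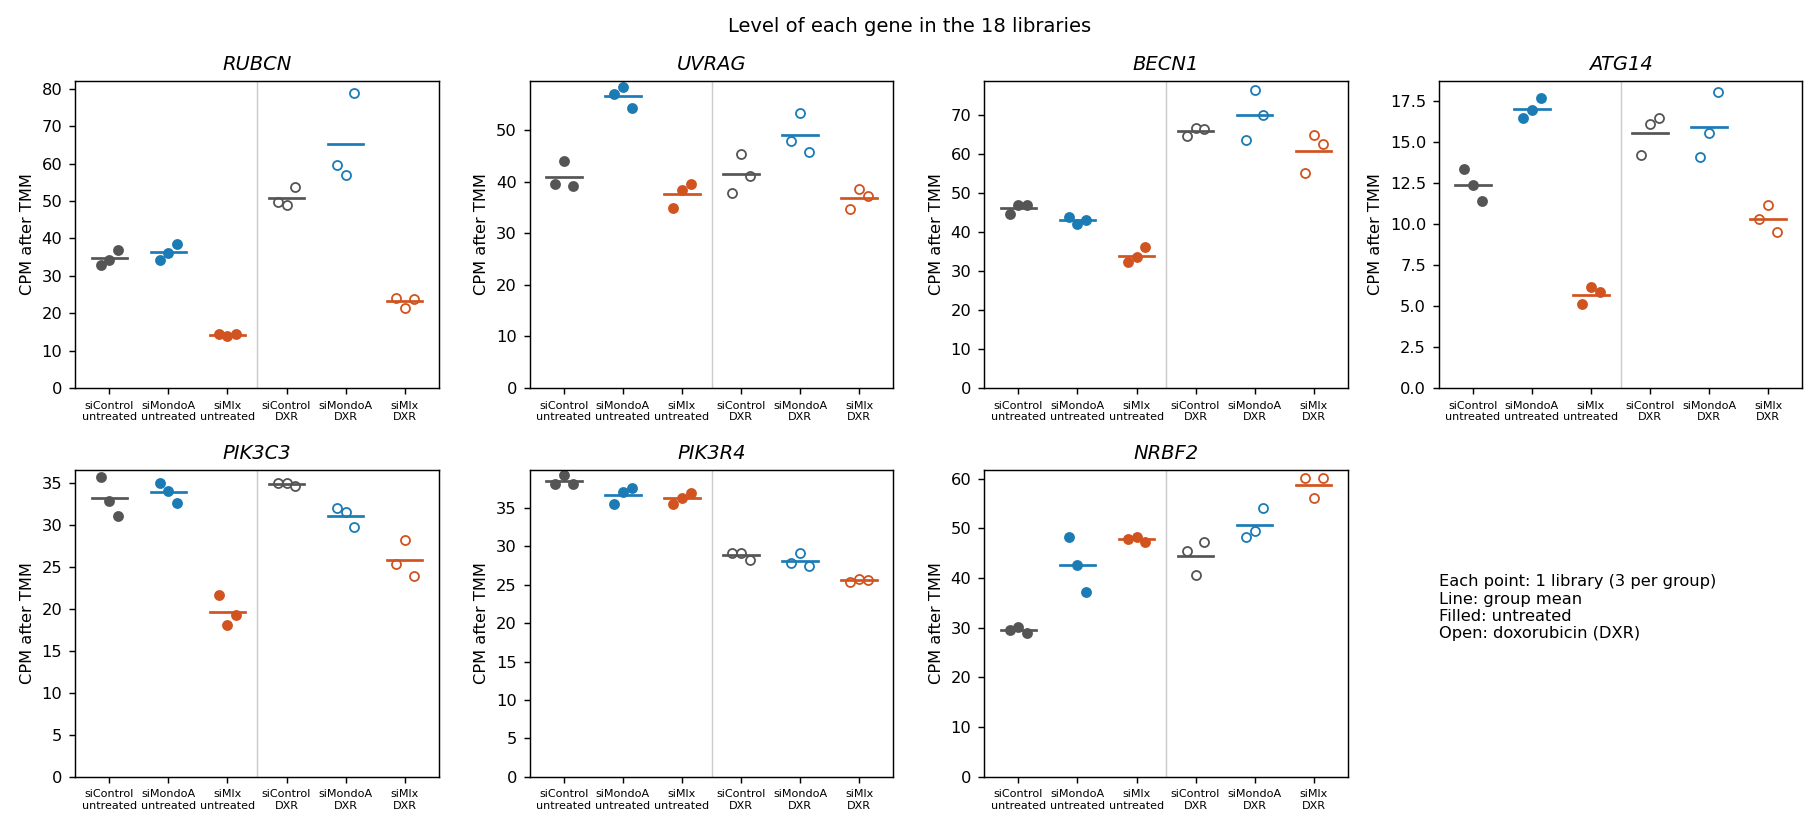
Level of each of the 7 genes in the 18 libraries, in CPM after TMM scaling (vertical axes, from 0), by group of 3 libraries (horizontal axis). Points are libraries, filled for untreated and open for DXR, and lines are group means. RUBCN lies at 13.9 to 14.5 CPM in untreated siMlx libraries, under the 33.0 to 36.8 CPM of siControl, and PIK3R4 is lower in every DXR group than in every untreated group.

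With siMlx in untreated cells, the Rubicon gene and 3 genes of the complex fell, 1 rose and 2 did not pass the test. Those 5 of 7 stand against 47.9% of all tested genes past the test in this comparison, 23% lower and 24.9% higher. Summed marker levels moved in the same comparison, without overlap between the groups: from 516 to 700 CPM with siControl to 340 to 440 CPM with siMlx for the epithelial list, from 55 to 60.5 to 34.8 to 40.8 CPM for the retinal pigment epithelium list, from 106 to 135 to 67.9 to 87.3 CPM for the blood and endothelium list, and from 3414 to 4090 up to 4974 to 5563 CPM for the mesenchymal list. Each sum rests on part of its list. In untreated siControl cells a mean of 1 CPM or more was reached by 2 of 5 epithelial and 2 of 10 retinal pigment epithelium markers. It was reached by 1 of 8 blood and endothelium and 6 of 10 mesenchymal markers. The part of these sums in the members' changes was not tested. RUBCN had 33.0, 34.3 and 36.8 CPM in the siControl libraries and 14.3, 13.9 and 14.5 CPM in the siMlx libraries. The groups were far apart, and the siMlx libraries held 41.0% of the siControl level (log2 fold change -1.29, 95% interval -1.5 to -1.07, adjusted p = 3.38e-09 by edgeR's quasi-likelihood test over all 13676 genes). Only 3.63% of tested genes had a lower fold change. RUBCN overlaps the antisense gene FYTTD1, and whether the counting used strand is not given in the sources used here, so reads of the pair cannot be told apart where they overlap. FYTTD1, named for that overlap and not by the rule for named genes, was at -0.02 ± 0.06 (adjusted p = 0.835).

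ATG14, the subunit that directs the kinase to forming autophagosomes, had 13.4, 12.4 and 11.4 CPM with siControl and 5.11, 6.16 and 5.84 CPM with siMlx. Its 3 siMlx libraries, of 91 to 122 counts, all lay under the siControl libraries (log2 fold change -1.12 ± 0.11, adjusted p = 9.83e-08). The kinase gene PIK3C3 had 35.7, 32.9 and 31.1 CPM with siControl and 21.6, 18.1 and 19.3 CPM with siMlx, again with no overlap (-0.76 ± 0.08, adjusted p = 9.63e-08). BECN1 had 44.6, 46.9 and 46.9 CPM against 32.3, 33.5 and 36.1 CPM, the smallest of the 4 decreases (-0.44 ± 0.07, adjusted p = 3.47e-05). PSME3, an antisense neighbour that overlaps BECN1 and also lies outside the rule for named genes, was at -0.06 (adjusted p = 0.336), and the other such neighbour, CNTD1, had at most 5 counts in a library.

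NRBF2, which assists the ATG14-containing complex, went the other way. It had 29.6, 30.2 and 28.9 CPM with siControl and 47.9, 48.2 and 47.2 CPM with siMlx, so that the siMlx libraries were 1.61 times as high (log2 fold change 0.69 ± 0.08, adjusted p = 5.06e-07). UVRAG, the subunit of the endosomal complex that Rubicon binds, had 39.6, 43.9 and 39.2 CPM against 34.8, 38.3 and 39.6 CPM, with overlapping groups (-0.12, 95% interval -0.28 to 0.04, adjusted p = 0.21). The scaffold gene PIK3R4 had 38.2, 39.3 and 38.2 CPM against 35.5, 36.3 and 37.0 CPM (-0.09, 95% interval -0.19 to 0.02, adjusted p = 0.171). The intervals of UVRAG and PIK3R4 leave room for a decrease of up to 0.28 and 0.19 on the log2 scale.

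With siMlx in DXR-treated cells, 4 genes fell and 1 rose, 5 of 7 against 30.2% of tested genes (16.2% lower and 14% higher). All 4 marker sums again lay apart and in the same directions, with the epithelial list at 1070 to 1145 CPM with siControl and 890 to 987 CPM with siMlx and the mesenchymal list at 3420 to 3739 and 4204 to 4736 CPM, and their part was not tested. RUBCN had 49.8, 49.0 and 53.7 CPM with siControl and 24.1, 21.5 and 23.9 CPM with siMlx. The siMlx libraries held 45.6% of the siControl level (log2 fold change -1.13 ± 0.10, adjusted p = 2.94e-08 by edgeR's quasi-likelihood test), and 2.65% of tested genes had a lower fold change. FYTTD1, antisense to RUBCN, was also lower here (-0.17, adjusted p = 0.0235), and its part in the RUBCN counts was not tested. ATG14 fell from 14.2, 16.1 and 16.5 CPM to 10.3, 11.2 and 9.51 CPM (-0.59 ± 0.10, adjusted p = 0.000213). PIK3C3 fell from 35.0, 35.0 and 34.6 CPM to 25.4, 28.2 and 23.9 CPM (-0.43 ± 0.08, adjusted p = 0.000199). NRBF2 rose from 45.5, 40.6 and 47.2 CPM to 60.1, 56.0 and 60.2 CPM (0.40 ± 0.08, adjusted p = 0.000503). Groups did not overlap for 5 of the 7 genes, these 4 and PIK3R4, against 43.4% of tested genes.

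PIK3R4 also fell with siMlx under DXR, from 29.1, 29.2 and 28.2 CPM to 25.4, 25.8 and 25.6 CPM, but by a small amount (-0.17 ± 0.05, adjusted p = 0.0193). That call was lost in 6 of 13 alternatives, with adjusted p = 0.0581 without siControl DXR replicate 1, 0.0869 without siMlx DXR replicate 1, 0.0738 with upper-quartile scaling, 0.0587 with DESeq2, 0.0507 with the compared groups fitted alone and 0.217 without the low-count filter. BECN1 had 64.7, 66.7 and 66.6 CPM against 55.2, 64.9 and 62.7 CPM (-0.11, 95% interval -0.26 to 0.03, adjusted p = 0.222). UVRAG had 37.7, 45.4 and 41.1 CPM against 34.7, 38.5 and 37.2 CPM (-0.17, adjusted p = 0.113), and passed the test without siControl DXR replicate 1 (-0.23, adjusted p = 0.0466).

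**Figure D2:**
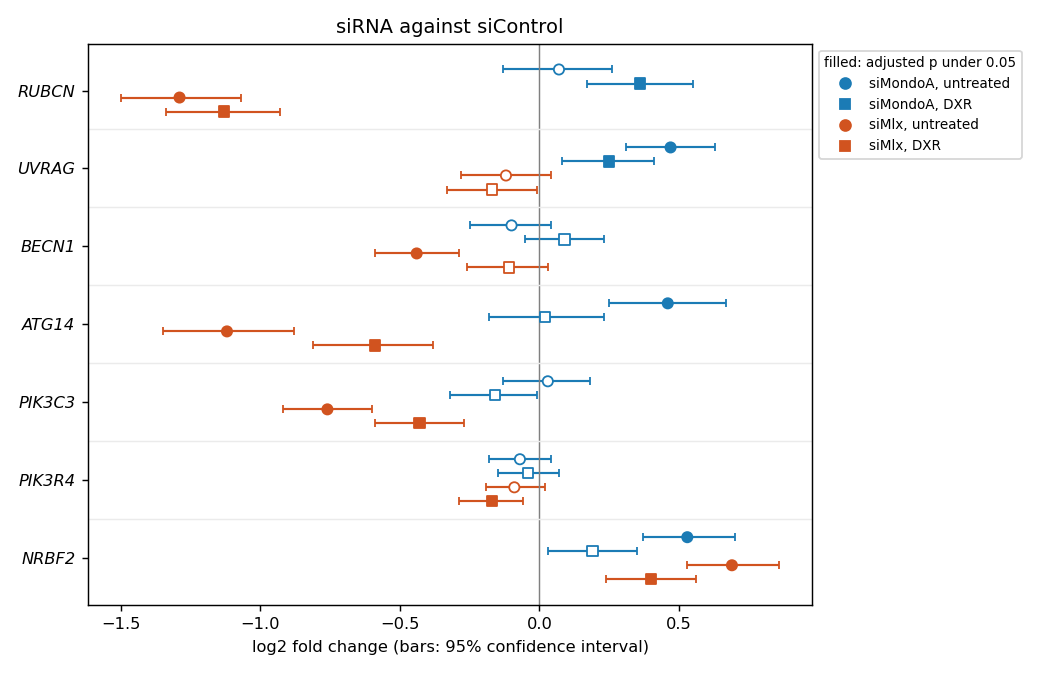
Log2 fold change of each gene with siMondoA (blue) or siMlx (orange) against siControl, in untreated cells (circles) and under DXR (squares), with bars for the 95% confidence interval and filled points for adjusted p under 0.05. RUBCN lies at -1.29 and -1.13 with siMlx and at 0.07 and 0.36 with siMondoA. Comparisons within a treatment share the 3 siControl libraries.

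With siMondoA in untreated cells, 3 genes rose and none fell, 3 of 7 against 46.6% of tested genes, with 23.3% of tested genes higher. RUBCN had 34.2, 36.2 and 38.6 CPM, overlapping the 33.0 to 36.8 CPM of siControl (log2 fold change 0.07, 95% interval -0.13 to 0.26, adjusted p = 0.601). UVRAG, by contrast, had 56.9, 58.3 and 54.3 CPM, all above its siControl libraries at 39.2 to 43.9 CPM (0.47 ± 0.08, adjusted p = 3.74e-05). ATG14 had 16.5, 17.0 and 17.7 CPM, above 11.4 to 13.4 CPM (0.46 ± 0.10, adjusted p = 0.000773). NRBF2 had 48.3, 42.6 and 37.1 CPM, the widest spread of its untreated groups and still above 28.9 to 30.2 CPM (0.53 ± 0.08, adjusted p = 1.52e-05). BECN1 (-0.10), PIK3C3 (0.03) and PIK3R4 (-0.07) did not pass, with adjusted p of 0.247, 0.796 and 0.286. All of these comparisons share the siControl libraries with those of siMlx.

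With siMondoA under DXR, 2 genes rose, RUBCN and UVRAG, and none fell, 2 of 7 against 24.8% of tested genes, with 10.9% of tested genes higher. The epithelial marker sum was 1212 to 1328 CPM against 1070 to 1145 CPM with siControl, and its part was not tested. RUBCN had 59.8, 57.1 and 78.9 CPM with siMondoA, all above the 49.0 to 53.7 CPM of siControl (log2 fold change 0.36, 95% interval 0.17 to 0.55, adjusted p = 0.00629). Replicate 3 stood well above the other siMondoA libraries. Without siMondoA DXR replicate 3, the fold change was 0.20 and the call was lost (adjusted p = 0.0518). FYTTD1, antisense to RUBCN, was also higher here (0.32, adjusted p = 0.000252), and its part in the RUBCN counts was not tested.

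UVRAG had 47.9, 53.3 and 45.8 CPM with siMondoA under DXR against 37.7, 45.4 and 41.1 CPM with siControl, without overlap but with little room between the groups (0.25 ± 0.08, adjusted p = 0.024). It missed the threshold without siControl DXR replicate 1 (0.18, adjusted p = 0.132), without siControl DXR replicate 3 (0.24, adjusted p = 0.0663), without siMondoA DXR replicate 2 (0.18, adjusted p = 0.137) and with the compared groups fitted alone (0.24, adjusted p = 0.0607). NRBF2 had 48.3, 49.5 and 54.1 CPM against 45.5, 40.6 and 47.2 CPM (0.19, adjusted p = 0.0866). ATG14 had 14.1, 15.6 and 18.1 CPM, overlapping the 14.2 to 16.5 CPM of siControl (0.02, 95% interval -0.18 to 0.23, adjusted p = 0.892). BECN1 (0.09), PIK3C3 (-0.16) and PIK3R4 (-0.04) had adjusted p of 0.373, 0.12 and 0.661.

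The siRNAs were also compared with each other, where the siControl libraries entered the shared fit but not the difference. In untreated cells 5 of 7 genes were higher with siMondoA than with siMlx, against 58.9% of tested genes past the test in either direction and 28.5% higher. ATG14 differed most, at 16.5 to 17.7 CPM against 5.11 to 6.16 CPM (log2 difference 1.58 ± 0.11, adjusted p = 3.33e-10), followed by RUBCN (1.35 ± 0.10, adjusted p = 1.03e-09), PIK3C3 (0.79), UVRAG (0.59) and BECN1 (0.34). NRBF2, which rose with both siRNAs against siControl, did not pass between them (-0.16, adjusted p = 0.0845), although it did without siMondoA untreated replicate 1 (-0.26, adjusted p = 0.00837). PIK3R4 was at 0.02. FYTTD1, antisense to RUBCN, was higher with siMondoA (0.19, adjusted p = 0.00585 by edgeR's quasi-likelihood test). The epithelial marker sum was 606 to 824 CPM with siMondoA and 340 to 440 CPM with siMlx, and the mesenchymal sum 3561 to 4220 and 4974 to 5563 CPM. The part of FYTTD1 and of the marker sums was not tested.

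Under DXR 6 of 7 genes differed between the siRNAs, against 39% of tested genes: 5 were higher with siMondoA and NRBF2 was lower (18.9% and 20% of tested genes). RUBCN, at 57.1 to 78.9 CPM against 21.5 to 24.1 CPM, differed most (log2 difference 1.49 ± 0.10, adjusted p = 3.18e-10), and 98.2% of tested genes had a lower value. ATG14 (0.62), UVRAG (0.41), PIK3C3 (0.27) and BECN1 (0.20) followed. BECN1 lost the call without siMlx DXR replicate 1 (0.14, adjusted p = 0.147), without siMondoA DXR replicate 2 (0.13, adjusted p = 0.153), with upper-quartile scaling (adjusted p = 0.0586) and with the groups fitted alone (adjusted p = 0.0688). NRBF2, at -0.21 (adjusted p = 0.0327), lost it without siMlx DXR replicate 1 (0.083), siMlx DXR replicate 3 (0.093), siMondoA DXR replicate 1 (0.115) or siMondoA DXR replicate 2 (0.0936), where the values are adjusted p. PIK3C3 lost it without siMlx DXR replicate 3 (0.21, adjusted p = 0.0538). PIK3R4 did not pass (0.13, adjusted p = 0.0549). FYTTD1 was again higher with siMondoA (0.49, adjusted p = 7.24e-07 by edgeR's quasi-likelihood test). The epithelial marker sum was 1212 to 1328 CPM with siMondoA and 890 to 987 CPM with siMlx, and the mesenchymal sum 3621 to 4075 and 4204 to 4736 CPM. The part of FYTTD1 and of the marker sums was not tested.

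DXR with siControl raised 4 genes and lowered 1, 5 of 7 against 56.7% of tested genes (28.1% higher and 28.6% lower). The epithelial marker sum went from 516 to 700 CPM to 1070 to 1145 CPM and that of the retinal pigment epithelium list from 55 to 60.5 CPM to 44.3 to 50.2 CPM, and their part was not tested. RUBCN rose from 33.0 to 36.8 CPM untreated to 49.0 to 53.7 CPM (1.46-fold, log2 fold change 0.55 ± 0.09, adjusted p = 4.5e-05). FYTTD1 was higher as well (0.30, adjusted p = 0.00013), and its part in the RUBCN counts was not tested. BECN1 rose from 44.6 to 46.9 CPM to 64.7 to 66.7 CPM (0.52 ± 0.07, adjusted p = 2.47e-06). NRBF2 rose from 28.9 to 30.2 CPM to 40.6 to 47.2 CPM (0.59 ± 0.08, adjusted p = 3.07e-06). ATG14 rose less, from 11.4 to 13.4 CPM to 14.2 to 16.5 CPM (0.34 ± 0.10, adjusted p = 0.00757). PIK3R4 fell from 38.2 to 39.3 CPM to 28.2 to 29.2 CPM (-0.42 ± 0.05, adjusted p = 1.15e-06). The kinase gene PIK3C3 (0.07, 95% interval -0.08 to 0.22) and UVRAG (0.02, 95% interval -0.14 to 0.18) did not pass.

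**Figure D3:**
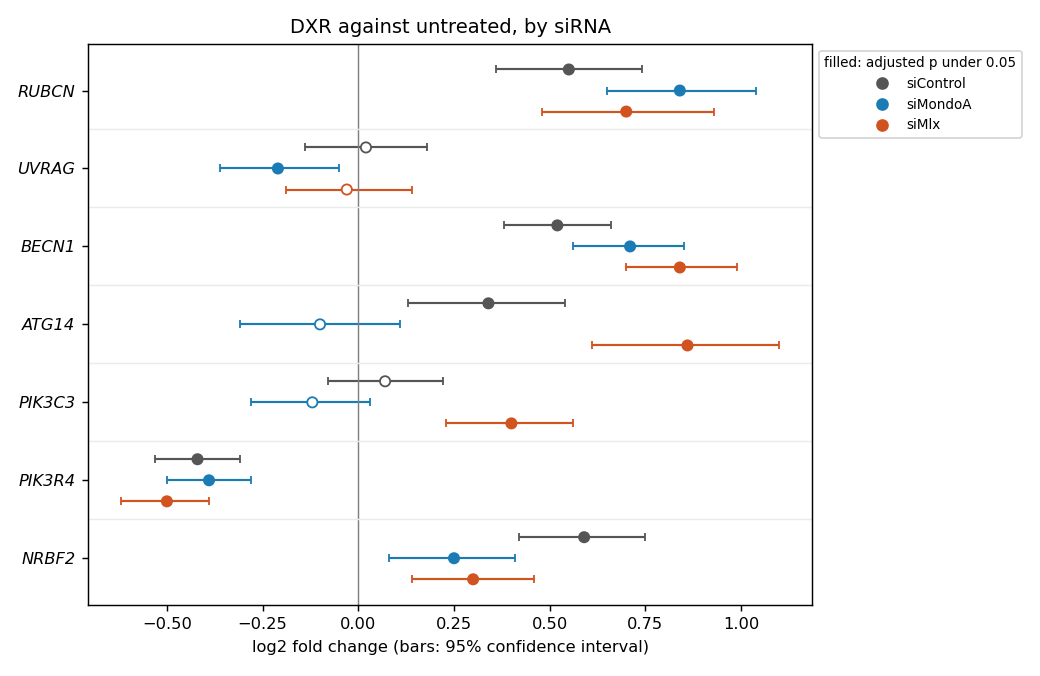
Log2 fold change of each gene with DXR against untreated cells, for siControl (grey), siMondoA (blue) and siMlx (orange), with bars for the 95% confidence interval and filled points for adjusted p under 0.05. RUBCN, BECN1 and NRBF2 are above 0 and PIK3R4 is below 0 with each siRNA, while ATG14 runs from -0.10 with siMondoA to 0.86 with siMlx.

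The DXR effect was then set out for the other siRNAs. With siMondoA, 5 of 7 genes passed, against 54.2% of tested genes, 26.2% higher and 28% lower. RUBCN rose by 0.84 ± 0.09, BECN1 by 0.71 ± 0.07 and NRBF2 by 0.25 ± 0.08, while PIK3R4 fell by 0.39 and UVRAG fell by 0.21 on the log2 scale. NRBF2 lost the call without siMondoA untreated replicate 3 (0.16, adjusted p = 0.0932) or siMondoA DXR replicate 3 (0.19, adjusted p = 0.0667). UVRAG lost it without siMondoA untreated replicate 1 (adjusted p = 0.0606) or 2 (0.0891), or siMondoA DXR replicate 1 (0.0765) or 3 (0.119), so that without siMondoA DXR replicate 3 the count was 3 of 7. With siMlx, 6 of 7 genes passed, against 62.1% of tested genes, 30.9% higher and 31.2% lower. ATG14 rose by 0.86 ± 0.12, from 5.11 to 6.16 CPM to 9.51 to 11.2 CPM, BECN1 by 0.84, RUBCN by 0.70, PIK3C3 by 0.40 and NRBF2 by 0.30, and PIK3R4 fell by 0.50. Even so, RUBCN in DXR-treated siMlx cells, at 21.5 to 24.1 CPM, stayed under every untreated siControl library.

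Whether an siRNA's effect differed with DXR was tested as an interaction. For siMlx, 2 of 7 genes passed, against 12.2% of tested genes, with 6.43% above 0 as both of them were. ATG14 was lowered less by siMlx under DXR than in untreated cells, by 0.52 ± 0.15 on the log2 scale (adjusted p = 0.0311). It lost the call without siControl untreated replicate 1 (adjusted p = 0.0842) or 2 (0.056), siMlx untreated replicate 1 (0.0811), siControl DXR replicate 1 (0.0751) or siMlx DXR replicate 2 (0.0879). BECN1 differed in the same direction by 0.33 ± 0.10 (adjusted p = 0.0336). BECN1 lost the call on leaving out any of 9 single libraries: siControl untreated replicate 2 (0.0711) or 3 (0.0584), siMlx untreated replicate 1 (0.0791) or 2 (0.0739), siControl DXR replicate 1 (0.0701), 2 (0.0551) or 3 (0.0566), or siMlx DXR replicate 2 (0.0957) or 3 (0.0728). PIK3C3 lay at the edge of the threshold (0.33, adjusted p = 0.0511) and RUBCN did not pass (0.15, 95% interval -0.14 to 0.45, adjusted p = 0.546). NRBF2 went the other way without passing (-0.29, adjusted p = 0.0933), and passed with the compared groups fitted alone (0.0454). At an unadjusted p under 0.05 in edgeR's quasi-likelihood test there were 4, ATG14, BECN1, PIK3C3 and NRBF2. PIK3C3 passed without siControl untreated replicate 3 (0.0292), siMlx untreated replicate 1 (0.0212), siMlx DXR replicate 1 (0.041) or siMlx DXR replicate 3 (0.0346), with RLE scaling (0.0428), with a filter of 1 CPM in 3 libraries (0.0475) and with DESeq2 (0.038).

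For siMondoA, 0 of 7 interactions passed in edgeR's quasi-likelihood test, against 10.1% of tested genes. At an unadjusted p under 0.05 there were 3, ATG14 (-0.44, adjusted p = 0.0556), NRBF2 (-0.34, adjusted p = 0.0539) and RUBCN (0.29, adjusted p = 0.172), and DESeq2 called 1, NRBF2 (adjusted p = 0.0432). ATG14 passed without siControl untreated replicate 1 (adjusted p = 0.0483), siControl DXR replicate 1 (0.0401) or siMondoA DXR replicate 3 (0.0228). NRBF2 passed without siMondoA untreated replicate 3 (0.00991), siControl DXR replicate 2 (0.046) or siMondoA DXR replicate 3 (0.0418). With upper-quartile scaling both ATG14 (0.0374) and NRBF2 (0.0312) passed.

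The genes were also ordered by level per length, in RPKM, counts scaled by gene length and library total. In untreated siControl cells BECN1 was highest at 22.1 ± 0.73 RPKM (SD, n = 3), then NRBF2 at 14.3 ± 0.18, PIK3C3 at 11.1 ± 0.72, PIK3R4 at 7.85 ± 0.09, UVRAG at 7.04 ± 0.40, RUBCN at 4.77 ± 0.30 and ATG14 at 2.68 ± 0.20 RPKM. No neighbours in this order overlapped, and the values depend on the gene lengths the authors used. In untreated siMlx cells NRBF2 led at 23.5 ± 0.11 RPKM, above BECN1 at 16.5 ± 1.0. PIK3C3, at 6.13 to 7.35 RPKM, then overlapped UVRAG at 6.09 to 6.98 RPKM, and RUBCN (1.99) and ATG14 (1.26) remained the lowest. In siControl cells under DXR, RUBCN at 6.37 to 6.86 RPKM overlapped UVRAG at 6.04 to 7.44 RPKM and exceeded PIK3R4 at 5.35 to 5.66 RPKM.

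Ratios within a library set the subunits against each other. The UVRAG to ATG14 ratio, endosomal against autophagosomal subunit, was 2.36, 2.83 and 2.73 in untreated siControl libraries and 5.41, 4.94 and 5.39 in siMlx libraries, 1.99 times as high. With siMondoA it was 2.75, 2.72 and 2.45, overlapping siControl. Under DXR the ratio was 2.11, 2.24 and 1.98 with siControl and 2.68, 2.73 and 3.11 with siMlx. The RUBCN to UVRAG ratio was 0.666, 0.623 and 0.749 in untreated siControl libraries, 0.329, 0.289 and 0.292 with siMlx, and 0.48, 0.495 and 0.568 with siMondoA. Under DXR it was 1.06, 0.862 and 1.04 with siControl, 0.556, 0.446 and 0.512 with siMlx, and 0.997, 0.854 and 1.37 with siMondoA. The siMlx groups lay under siControl in both treatments, and the siMondoA group did so only in untreated cells, a difference that was not tested. The RUBCN to BECN1 ratio was 0.21 to 0.225 with siControl and 0.115 to 0.127 with siMlx in untreated cells, and 0.211 to 0.231 with siControl under DXR. In the exact two-sided permutation test, 3 libraries against 3 cannot go below p = 0.1. That value was reached for 9 of the 15 ratio comparisons computed, those whose groups did not overlap, and Benjamini-Hochberg adjustment over the 15 gave 0.167 for each.

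**Figure D4:**
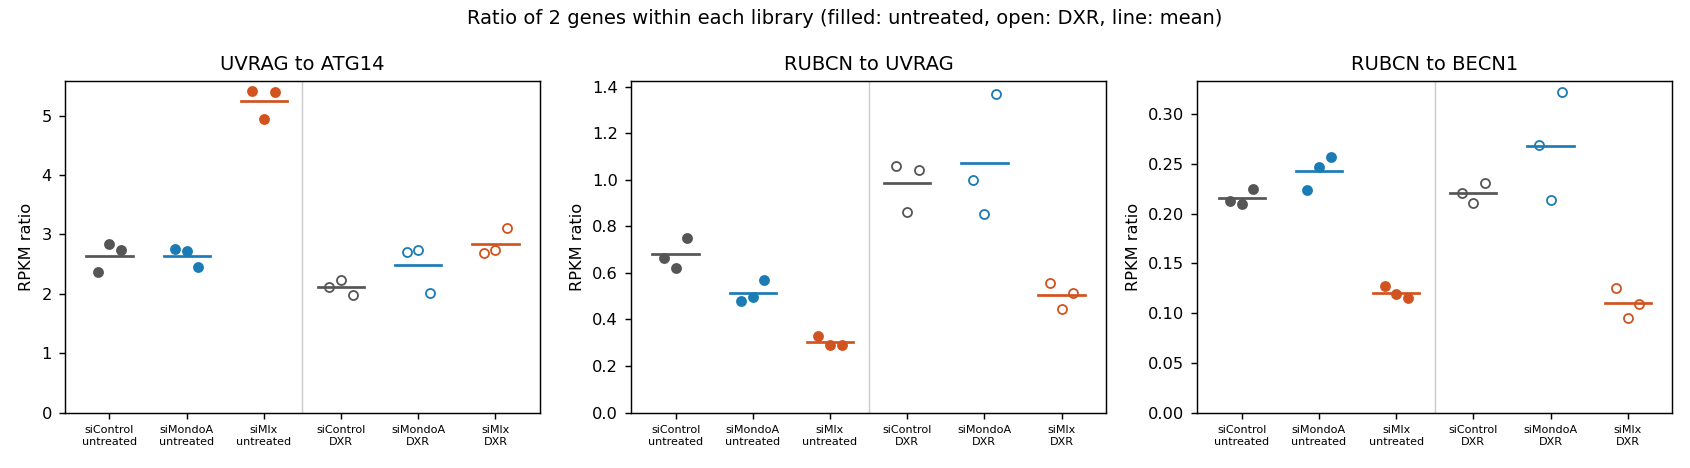
Ratio of the RPKM of 2 genes within each library (vertical axes, from 0), by group of 3 libraries. Points are libraries, filled for untreated and open for DXR, and lines are arithmetic means. The UVRAG to ATG14 ratio is 4.94 to 5.41 in untreated siMlx libraries and at most 3.11 elsewhere, and both RUBCN ratios are lowest with siMlx within each treatment.

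Across the 18 libraries, which share groups and treatments, RUBCN followed ATG14 (Pearson r of log2 CPM 0.89), PIK3C3 (0.80) and BECN1 (0.73) more closely than UVRAG (0.52), NRBF2 (-0.14) or PIK3R4 (-0.29). ATG14 and PIK3C3 had an r of 0.90, and BECN1 and PIK3R4 one of -0.80. Among 10100 genes with a mean of at least 5 CPM, the 5 most like RUBCN were NPR3 (0.970), C1orf198 (0.968), BLZF1 (0.967), UBA7 (0.967) and SECTM1 (0.965). Each was higher in all siControl means than in the siMlx mean of the same treatment, which their choice by likeness to RUBCN in these libraries itself favours. NPR3 had 32.3 ± 1.8 CPM in untreated siControl cells and 12.6 ± 0.028 CPM with siMlx (SD, n = 3). By Spearman's rank correlation only 1 of these 5 remained among the top 5.

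Of 87 other genes of the pathway, in 5 lists, 78 were tested. With siMlx in untreated cells 26 were lower (33.3%, against 23% of all tested genes) and 19 higher (24.4%, against 24.9%), and the median log2 fold change was -0.03 against -0.44 for the 7 genes of the complex and 0.02 for all tested genes. Among Rubicon relatives, RAB7 and fusion partners, 8 of 20 were lower and 4 higher. The early endosome GTPase RAB5B had the smallest p there, at 42.5 ± 0.55 CPM against 141 ± 5.7 (-1.73, adjusted p = 6.46e-15), with STX17, the syntaxin of autophagosome fusion (-1.36), RAB5A (-0.72) and VPS41, a subunit of the HOPS tether (-0.44). Among PI3P effectors 7 of 20 were lower and 7 higher: the early endosome tether EEA1 (-1.06) and RBSN (-0.90) fell, and ZFYVE16 (0.77) and WDFY1 (0.47) rose. A further list, here the phosphatase and kinase list, held myotubularin-family genes, phosphoinositide phosphatases and other PI3P-making kinases. In it 5 of 16 were lower, led by MTMR6 (-1.06) and MTMR12 (-1.05), and 2 were higher. Among the ULK1 complex and upstream genes, 6 of 20 were lower and 5 higher, with PRKAA2, a catalytic subunit gene of AMPK, at -1.55, DAPK1 at -0.81, ATG13 at -0.68 and ULK1 at 0.60.

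Under DXR siMlx lowered 19 of the 78 (24.4%, against 16.2% of all tested genes) and raised 10 (12.8%, against 14%), with RAB5B (-0.98), STX17 (-0.93), MTMR12 (-0.80), MTMR6 (-0.77), RBSN (-0.72) and PRKAA2 (-0.87) again lower and ULK1 (0.55) higher. The PI3P effector WIPI2 (0.29) and PLEKHM1, a relative of Rubicon (0.24), were higher as well. With siMlx in untreated cells WIPI2 was at 0.28 and PLEKHM1 at 0.36, both past the test. With siMondoA in untreated cells, 27 were higher (34.6%, against 23.3%) and 16 lower (20.5%, against 23.3%). Higher and lower were 10 and 2 of 20 fusion partners and 8 and 2 of 20 PI3P effectors. In the phosphatase and kinase list they were 1 and 4 of 16, and among upstream genes 8 and 8 of 20. The Beclin 1 binder BCL2 fell from 11 ± 0.86 to 2.45 ± 0.34 CPM (-2.17), PRKAA2 by 1.19 and STX17 by 0.75 on the log2 scale, while the PI3P effectors WIPI2 (0.35) and SNX18 (0.58), the retromer regulator TBC1D5 (0.40) and PLEKHM1, a relative of Rubicon (0.29), rose. Under DXR siMondoA raised 6 (7.69%, against 10.9%) and lowered 11 (14.1%, against 13.9%), near the shares over all genes, among them PRKAA2 (-1.06) and BCL2 (-1.24). DXR with siControl raised 22 (28.2%, against 28.1%) and lowered 19 (24.4%, against 28.6%), shares near those over all genes. Among them were 7 and 3 of the 20 PI3P effectors and 1 and 5 of the 16 in the phosphatase and kinase list. The PI3P effectors WIPI1 (0.81) and WIPI2 (0.31) rose, as did ULK1 (0.60), and BCL2 (-1.75) and USP13, a deubiquitinase of Beclin 1 (-1.18), fell. Of the NADPH oxidase genes used in LC3-associated phagocytosis, CYBB, CYBA, NCF1, NCF4 and RAC2 were not tested, with at most 5 counts in any library, and the Rubicon relative RUBCNL had at most 2. RAC1, a small GTPase of the same list, was higher with siMlx in untreated cells (0.35, adjusted p = 6.3e-06).

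**Figure D5:**
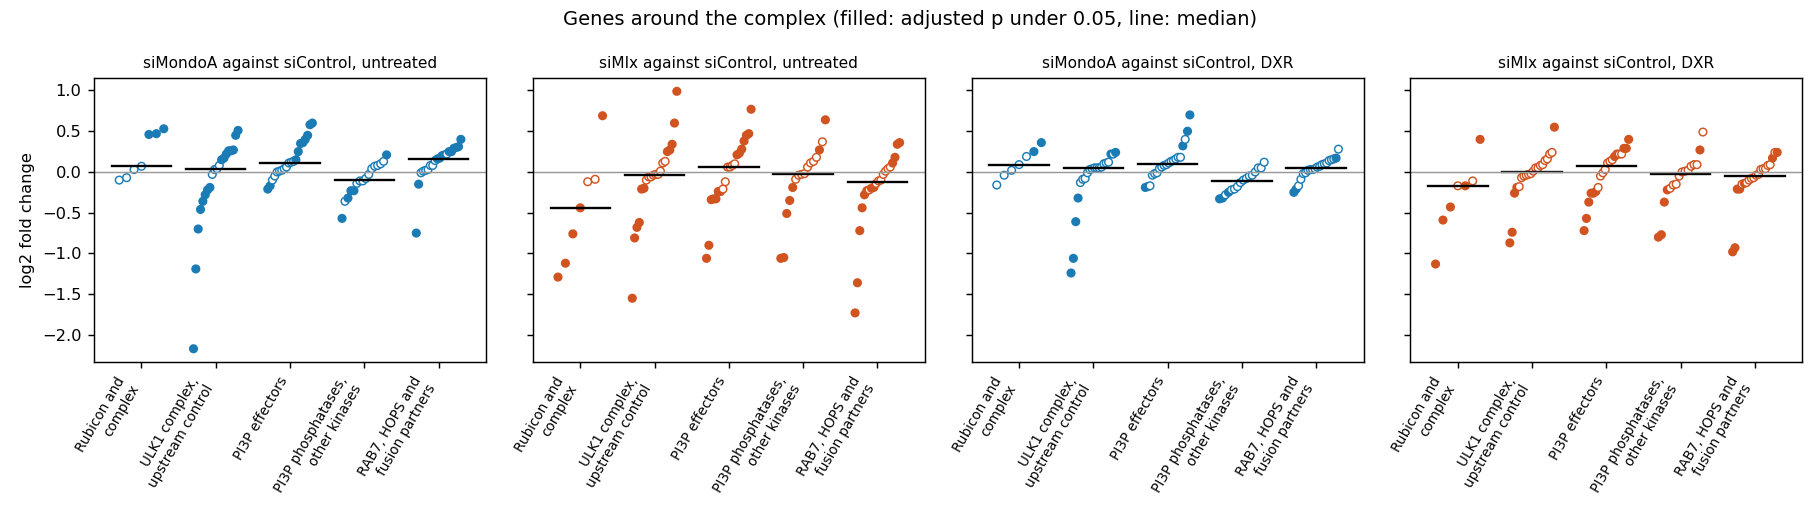
Log2 fold change against siControl of the 7 genes of Rubicon and the complex and of 4 lists around them, in 4 panels by siRNA and treatment. Each point is 1 tested gene, sorted by value within its list and filled for adjusted p under 0.05, and black lines are medians. With siMlx in untreated cells the median is -0.44 for the 7 genes and -0.03 for all other listed genes.

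Short sequences in 3′ UTRs were examined beside the siMlx result, since an siRNA can also lower mRNAs whose 3′ UTR pairs with its seed. No siRNA sequence is given in the sources used here. With the 7 genes left out, 7-base words were ranked by how low the genes with the word were with siMlx in untreated cells, allowing for UTR length and GC content. The first word was CTGGTCA. It was in the 3′ UTR of 10.2% of 11537 other genes, of which 41.5% were lower with siMlx in untreated cells, against 22.8% of genes without it, and 33.9% against 16.1% under DXR. The untreated shares come from the fold changes that ranked the word. Genes with the word had longer 3′ UTRs, with a median of 2869 bases against 962, and no share for genes of like 3′ UTR length is given here. The word was in the 3′ UTRs of RUBCN, BECN1, ATG14 and PIK3C3, the 4 genes that fell with siMlx in untreated cells, and not in those of UVRAG, PIK3R4 and NRBF2. The next words in the ranking, AATGAGA and ATGAGAA, were in those of ATG14 and PIK3C3 and of no other member, so not of RUBCN or BECN1. The sites of CTGGTCA are shown on the transcript strand of GENCODE 29 (GRCh38), with the word in capitals and its position beside the name.
RUBCN site at chr3:197673558-197673564, minus strand: gtgaaaacaCTGGTCAgagtggctt
BECN1 site at chr17:42810549-42810555, minus strand: ttgccagccCTGGTCAgttttgatt
BECN1 site at chr17:42810303-42810309, minus strand: aagctttacCTGGTCAccatgtgat
ATG14 site at chr14:55368716-55368722, minus strand: aagtggcctCTGGTCAttcttgtgg
PIK3C3 site at chr18:42085001-42085007, plus strand: tctgttacgCTGGTCAtccaaccca

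RUBCN, ATG14 and PIK3C3 have long 3′ UTRs in that annotation (3625, 3227 and 6693 bases), and BECN1, with 2 sites, a short one of 626 bases, beside 1782 for UVRAG, 808 for NRBF2 and 380 for PIK3R4. The gene length behind the deposited RPKM of PIK3C3 was 3069 bases, less than its annotated 3′ UTR alone. The CTGGTCA site of PIK3C3 lies at base 3864 of that 3′ UTR, further along than this whole length. Under DXR with siMlx, BECN1, which holds 2 sites, did not pass the test (-0.11, 95% interval -0.26 to 0.03). PIK3R4, which holds none, was at -0.17, a call lost in 6 of 13 alternatives. The first word ranked in the same way for siMondoA, TCCAGTA, gave a split at least as wide: 46.4% of the 8.7% of genes with it were lower with siMondoA in untreated cells, against 23.4% of genes without it, and 34.8% against 13.6% under DXR, with a median 3′ UTR of 3080 against 975 bases. Of the first 3 words for siMondoA, TTCCAGT was in the 3′ UTR of RUBCN and ATCCAGT in that of ATG14. TCCAGTA, like the RUBCN word, was in that of PIK3C3, and none of these 3 genes fell with siMondoA. The part of these words in the changes, and that of Mlx itself, was not tested.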

How the data were processed

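RNA of 18 RPE-1 libraries was sequenced after TruSeq Stranded mRNA preparation, per the labels' protocols. Reads were aligned to GRCh38 with TopHat2 2.1.1, per the submitters' processing notes. Which program counted reads, with which annotation and strand, is not given in the sources used here. The authors deposited raw gene counts and RPKM, checked to share whole gene lengths within 0.01 bases for 24845 of 24846 genes with a count.

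Counts were fitted with edgeR 4.0.16 (TMM scaling, filterByExpr, 1 mean per group, quasi-likelihood F test, Benjamini-Hochberg over 13676 genes, threshold 0.05, biological coefficient of variation 7.42%). The script was tested on simulated data. Ratios used deposited RPKM without a pseudocount and exact permutation tests. Alternatives were RLE and upper-quartile scaling, other low-count filters, DESeq2 1.42.0, a replicate block, the compared groups alone, 0.5 added to counts in ratios, Spearman's correlation and leaving out each library.

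The members and lists were chosen with earlier results of these data known. Named genes were the 7 members, the 2 targets, up to 4 tested genes of smallest p per list and comparison, and the 5 genes most like RUBCN. A result for 1 listed gene is not reported here. The promoter strings and 3′ UTR words were added after the members' fold changes were seen. UTRs were those of the GENCODE 29 transcript with the longest coding part, at least 50 bases long, and words needed at least 50 genes.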

Additional observations from a re-analysis of the deposited data

Results flagged for a closer look

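ATG14 and BECN1 are given here because the effect of siMlx differed between untreated and DXR-treated cells in the test of the interaction. For ATG14 the effect was -1.12 in untreated and -0.59 in DXR-treated cells, a difference of 0.52 ± 0.15 on the log2 scale (edgeR's quasi-likelihood test, adjusted p = 0.0311, 0.0208 to 0.0879 over 19 alternatives). For BECN1 it was -0.44 and -0.11, a difference of 0.33 ± 0.10 (adjusted p = 0.0336, 0.00596 to 0.0957 over 19 alternatives). Leaving out 1 library ended the call in 5 cases for ATG14 and in 9 for BECN1, named with the interaction tests.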

How the results depend on the processing

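No member's fold change past the test changed sign under any alternative. Of 539 member fold changes recomputed under other settings, 520 kept their side of the threshold, as did 501 of 546 with 1 library left out. These include changes of sign among values that did not pass. ATG14 with siMondoA under DXR, for example, ran from -0.08 to 0.1 over 13 alternatives. RUBCN and siMlx gave -1.32 to -1.24 in untreated and -1.17 to -1.08 in DXR-treated cells over 13 alternatives each. Counts of members past the test that moved by over 1.5 times were as follows. For siMondoA under DXR, 2 became 1 with the groups fitted alone and 1 to 2 with 1 library left out. For DXR with siMondoA, 5 became 3 to 5 with 1 library left out. For the interaction of siMondoA with DXR, 0 became 2 with upper-quartile scaling, 1 with DESeq2 and 0 to 2 with 1 library left out. For the interaction of siMlx with DXR, 2 became 0 to 3 with 1 library left out. Over all genes, the number lower in the interaction with siMondoA, 586, ran from 316 (without siControl DXR replicate 2) to 579 with 1 library left out, and was 377 without siMondoA untreated replicate 1. For siMlx, 795 ran from 502 (without siMlx DXR replicate 1) to 872. The cause was not tested. Upper-quartile scaling moved the share of called genes that were higher from 57.7% to 45.4% in the interaction with siMondoA and from 46.2% to 56.2% for siMlx under DXR, and moved the median of all genes by at most 0.05. At 91 to 122 counts per library in untreated siMlx cells, ATG14 was the member of lowest depth.

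The labels number the replicates alike in all groups, and the library names end in matching tags. Neither says that a number marks a shared culture or day. Same-numbered libraries correlated at -0.102 to 0.33 in their deviations from group means (median 0.086, 21 of 45 pairs over 0.1). For pairs of other numbers the median was -0.0495. Of the 18 libraries, 14 correlated best with their own number, a hint from the data and not the design. With the replicate number as a block, the count of members past the test went from 0 to 2 in the interaction of siMondoA with DXR (ATG14, adjusted p = 0.0462, and NRBF2, adjusted p = 0.0437), from 2 to 3 in that of siMlx, with PIK3C3 (adjusted p = 0.0264), and from 5 to 6 for siMlx under DXR, with UVRAG (adjusted p = 0.0429). It changed no other call of a member.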
